A study of Mus musculus with 14 samples.

Results

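The 10 genes described here are the nuclear receptors Pparg and Ppard and 8 genes commonly used as readouts of PPAR activity: Lpl, Cd36, Fabp4, Angptl4, Plin2, Plin1, Lipe and Pdk4. They were chosen by symbol from the 49671 genes of the count table and followed through all 7 groups of the study. All 10 passed the filter on low counts, Plin1 only through the group in which it was high.

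C2C12 cells, an established line of mouse skeletal muscle myoblasts, were profiled by RNA sequencing in 14 libraries, 2 in each of 7 groups. Cells growing in DMEM with 20% fetal calf serum formed the day 0 group. Other cells were changed to the medium DM1 with 2% horse serum, DM2 with 10% fetal calf serum and an adipogenic cocktail, or DM3 with 2% horse serum and that cocktail, and were harvested at day 2 or day 7. The cocktail held 1 µg/ml insulin, 0.5 mM IBMX (an inhibitor of cyclic nucleotide phosphodiesterases), 0.5 µM dexamethasone (a glucocorticoid) and 2 µM rosiglitazone (a PPAR-gamma agonist). Rosiglitazone was thus present only in DM2 and DM3 and always beside the other 3 agents, so the effects of the 4 agents cannot be told apart. DM3 and DM1 share their serum, DM3 and DM2 share the cocktail, and DM2 and DM1 share neither. All groups come from this single cell line, and no label states that same-group libraries were separate cultures, so the p-values reflect spread that may be technical.

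Library totals ran from 21907617 to 29784885 expected counts. Processed pseudogenes took a lower share of counts in 1 library than in the other of 3 groups: 1.28% in day 0 replicate 1 (2.51% in replicate 2), 1.29% in replicate 1 of DM1 on day 2 (2.14% in replicate 2), and 0.584% in replicate 2 of DM3 on day 2 (2.34% in replicate 1). The last of these also had the fewest genes with a count, 17750 against 19640 to 21111 in the other libraries. Results for the 10 genes whose call changes without these 3 libraries, the low-pseudogene libraries below, are given with both values.

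PPAR-gamma is a ligand-activated nuclear receptor that pairs with a retinoid X receptor (RXR) on DNA, and it is the receptor without which fat cells do not form. PPAR-delta, its relative, is the main PPAR of skeletal muscle and drives genes of fatty acid oxidation there. The pair binds 2 AGGTCA hexamers in a row with 1 base between them, and rosiglitazone, a thiazolidinedione, activates PPAR-gamma directly. Textbook targets cover the path of a fatty acid through a cell: release from lipoproteins, uptake, binding in the cytosol, storage in droplets, release by lipases, and the switch from glucose to fat as fuel.

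The 250 bases upstream of a start site are shown for Cd36, Plin2 and Pdk4, 3 target genes that stood higher in DM3 than in DM1 at day 2. Capitals mark AGGTCA or its reverse complement TGACCT, and each sequence is written 5′ to 3′ on the strand of the gene, from RefSeq on GRCm38.p6.
Cd36, chr5:17835897-17836146, minus strand: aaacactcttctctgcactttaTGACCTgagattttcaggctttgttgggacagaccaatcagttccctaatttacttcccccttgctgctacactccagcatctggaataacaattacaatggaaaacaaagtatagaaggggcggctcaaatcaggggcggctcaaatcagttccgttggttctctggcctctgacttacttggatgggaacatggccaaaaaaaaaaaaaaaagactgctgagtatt
Plin2, chr4:86670060-86670309, minus strand: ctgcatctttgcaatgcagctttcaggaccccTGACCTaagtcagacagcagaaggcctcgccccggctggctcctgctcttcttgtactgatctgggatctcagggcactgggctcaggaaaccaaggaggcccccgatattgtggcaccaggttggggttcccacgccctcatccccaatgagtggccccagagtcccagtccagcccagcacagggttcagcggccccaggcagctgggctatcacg
Pdk4, chr6:5496279-5496528, minus strand: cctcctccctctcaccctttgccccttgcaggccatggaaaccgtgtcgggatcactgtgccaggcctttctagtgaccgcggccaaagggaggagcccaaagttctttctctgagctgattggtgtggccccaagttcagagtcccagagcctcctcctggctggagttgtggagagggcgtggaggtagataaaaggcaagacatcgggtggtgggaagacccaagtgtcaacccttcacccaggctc
Cd36 held its hexamer at position -228 and Plin2 at -218 from the start, both on the opposite strand, and the Pdk4 window held none.

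RefSeq promoter windows, 250 bases before to 50 after a start, were found for 7 of the 10 genes at 10 start sites. Fabp4, Angptl4 and Lpl are not among them. Each motif was searched on both strands. The hexamer AGGTCA lay in 4 of the 10 windows (Pparg at 2 of its start sites, Cd36 and Plin2) and in 16.3% of the 32851 promoter windows searched. The 32851, called all windows below, leave out a chromosome that holds none of the 10 genes and any window not of full length. The full repeat, the hexamer, any base and the hexamer again, was in none of the 10 and in 0.0396% of all windows. A relaxed form with AGGNCA for each hexamer, which takes in every match of the strict form, was in none of the 10 and in 0.381% of all. The glucocorticoid receptor palindrome, GNACA and TGTNC with 3 bases between them, was likewise in none of the 10 and in 0.475% of all windows. A match describes the letters alone, and a window without one says nothing of binding elsewhere.

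Levels below are CPM, counts scaled to an equal TMM-adjusted library total, given for replicate 1 and then replicate 2, with means ± SD of n = 2. Differences are log2 fold changes ± SE from edgeR's quasi-likelihood test over 15973 genes, and a gene is called at a Benjamini-Hochberg adjusted p under 0.05. In a culture sampled in bulk, fewer cells of a type and less RNA per cell cannot be told apart.

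Pparg (ENSMUSG00000000440, chr6:115360951-115490399, plus strand, GRCm38), the receptor of rosiglitazone, was transcribed before any treatment and did not exceed its day 0 level by the test in any of the 6 groups in differentiation medium. It measured 24.3 and 22.2 CPM at day 0, 18.4 and 18.0 in DM1, 23.5 and 23.7 in DM2, and 18.4 and 15.0 in DM3 at day 2. By day 7 it had 18.3 and 20.3 in DM1, 9.67 and 12.3 in DM2, and 12.3 and 12.6 in DM3. The lowest levels were thus in the 2 rosiglitazone groups of day 7, which overlapped each other, and the highest at day 0 and in DM2 at day 2, which also overlapped. Between these lay DM3 at day 2 and DM1 at both days, each overlapping the next in that order. Group means spanned only 2.15-fold. Against day 0, Pparg fell by 1.08 ± 0.13 in DM2 (adjusted p = 1.67e-05) and by 0.91 ± 0.13 in DM3 at day 7 (adjusted p = 6e-05). It was also called lower in DM3 at day 2, at -0.48 ± 0.13 (adjusted p = 0.00743), but not without day 0 replicate 1 (0.0571), without DM3 replicate 2 (0.0694) or without the 3 libraries of low pseudogene share (-0.27, 0.251). The 2 DM1 differences from day 0 were -0.36 ± 0.13 (adjusted p = 0.0533) and -0.27 ± 0.13 (0.0952), and neither was called.

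Ppard (ENSMUSG00000002250, chr17:28232700-28301474, plus strand) varied least of the 10, over 1.37-fold in its group means. It measured 66.1 and 63.7 CPM at day 0, 54.9 and 55.1 in DM1, 62.9 and 62.8 in DM2, and 59.9 and 70.5 in DM3 at day 2. Day 7 gave it 52.8 and 54.1 in DM1, 57.1 and 62.9 in DM2, and 47.3 and 48.0 in DM3. DM3 at day 7 was the lowest group and separate from all others. DM3 at day 2, from 59.9 to 70.5, overlapped day 0 and both DM2 groups, and the 2 DM2 groups overlapped each other. The fall in DM3 at day 7 against day 0 was -0.45 ± 0.09 (adjusted p = 0.000648). In DM1 at day 7 it was -0.28 ± 0.09 (adjusted p = 0.015), and this call was lost without day 0 replicate 1 (0.0839), DM1 replicate 1 (0.0721) or the low-pseudogene libraries (0.0806). In CPM per kilobase of principal transcript, the group means of Ppard, 14.5 to 19.9, stood above those of Pparg, 6.23 to 13.4, but per kilobase of exon union the ranges overlapped, at 6.34 to 8.68 and 3.73 to 8.

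**Figure D1:**
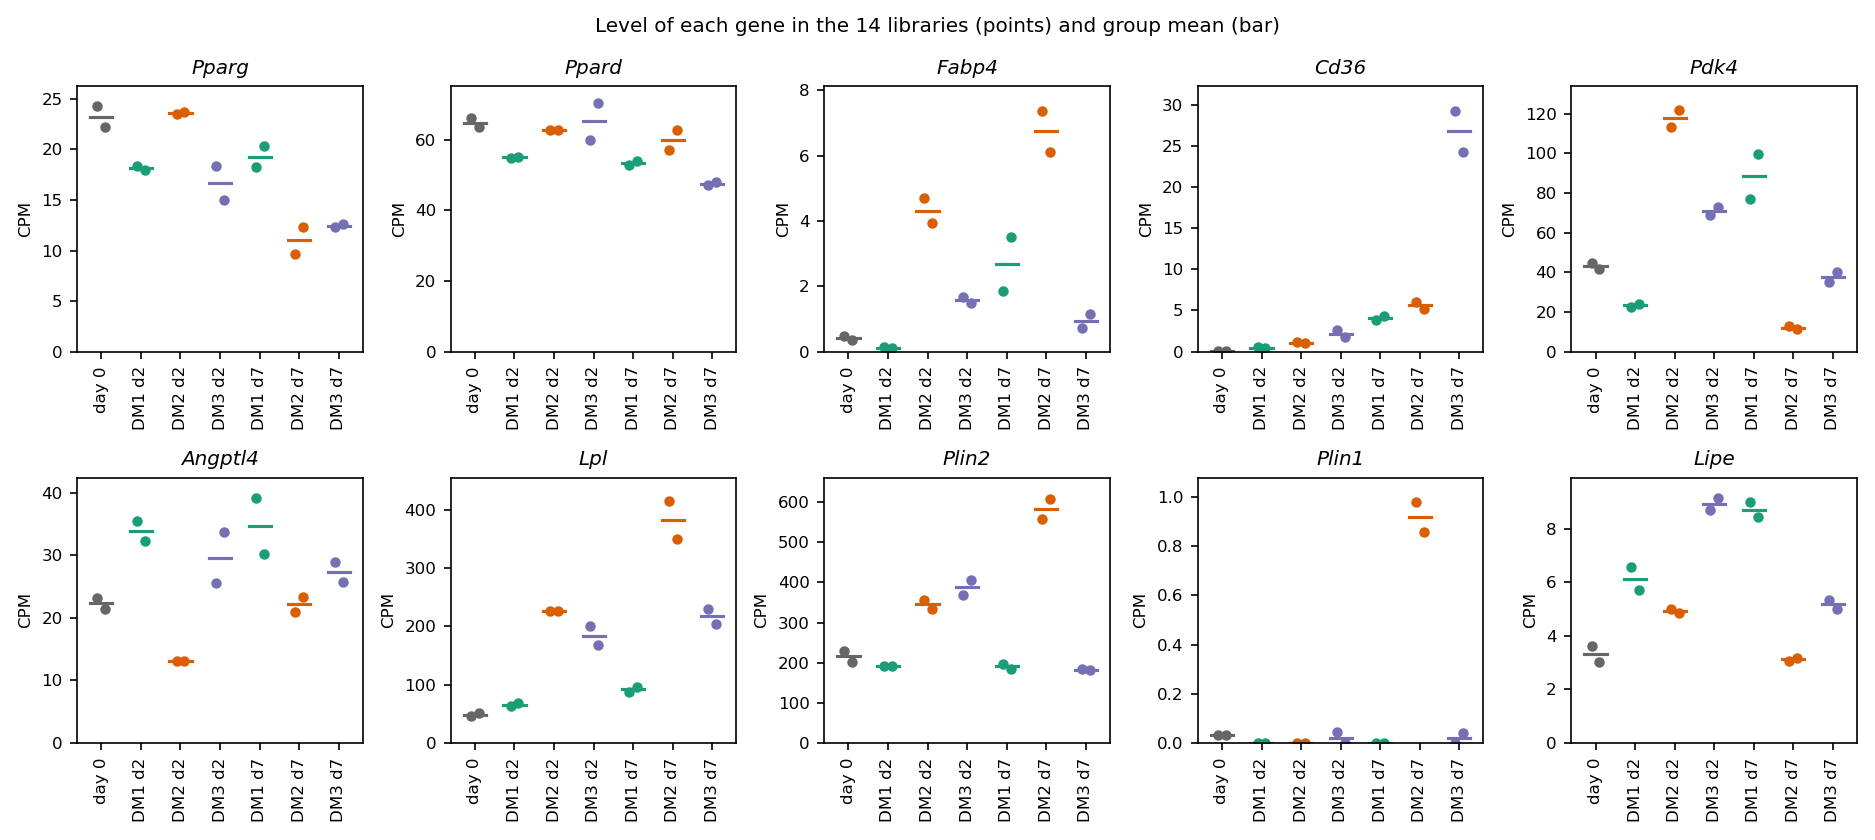
CPM of each of the 10 genes (vertical axes, each starting at 0) in the 7 groups (horizontal axes, d2 and d7 for day 2 and day 7), with points for the 2 libraries and bars for the group mean, in grey for day 0, green for DM1, orange for DM2 and purple for DM3. Lpl and Plin2 peak in DM2 at day 7, at means of 382 and 583, Cd36 in DM3 at day 7, at a mean of 26.8, and Pparg is lowest in DM2 and DM3 at day 7.

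Lpl (ENSMUSG00000015568, chr8:68880491-68907448, plus strand), the lipase that frees fatty acids from circulating lipoproteins, was higher in every group with cocktail than in every group without it. It measured 46.9 and 51.0 CPM at day 0, 62.9 and 69.1 in DM1, 227 and 227 in DM2, and 200 and 168 in DM3 at day 2. On day 7 its levels were 88.0 and 96.4 in DM1, 415 and 350 in DM2, and 229 and 204 in DM3. DM2 at day 2 overlapped DM3 at day 7, and all other neighbours in the order were separate. Against day 0 Lpl rose in all 6 groups, by 2.21 ± 0.12 (adjusted p = 5.47e-08) and 2.96 ± 0.12 (2.29e-09) in DM2 at day 2 and day 7. In DM3 it rose by 1.91 ± 0.12 (adjusted p = 8.16e-08) and 2.14 ± 0.12 (1.21e-08). DM1 gave the smallest rises, 0.91 ± 0.11 at day 7 (adjusted p = 2.73e-05) and 0.43 ± 0.11 at day 2 (0.0131). The rise in DM1 at day 2 lost its call without day 0 replicate 1 (0.109), without DM1 replicate 2 (0.105) or without the low-pseudogene libraries (0.0933).

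Cd36 (ENSMUSG00000002944, chr5:17781690-17888801, minus strand), a receptor that takes long-chain fatty acids into muscle and fat cells, went from near absence to its highest level in DM3 at day 7. At day 0 it had 1 and 2 counts, 0.0349 and 0.0681 CPM. By day 2 it measured 0.546 and 0.450 CPM in DM1, 1.16 and 1.03 in DM2, and 2.64 and 1.72 in DM3. Its levels at day 7 were 3.81 and 4.38 in DM1, 6.02 and 5.21 in DM2, and 29.3 and 24.3 in DM3. The libraries of no 2 neighbouring groups overlapped, and at each day the order was DM1, DM2, DM3, though DM2 and DM1 at day 7 did not differ by the test. With 3 counts in the day 0 group, ratios to it carry an exact 95% counting interval: 517-fold (176 to 2510) for DM3 at day 7, 109-fold (36.9 to 530) for DM2 and 78.8-fold (26.6 to 385) for DM1. At day 2 the ratios were 41.2-fold (13.7 to 203) for DM3, 21.2-fold (6.88 to 106) for DM2 and 9.58-fold (2.92 to 49.6) for DM1. All 6 were called, with adjusted p from 0.000143 in DM1 at day 2 to 5.45e-10 in DM3 at day 7. Cd36 thus also rose in DM1, where no rosiglitazone was given.

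Fabp4 (ENSMUSG00000062515, chr3:10204088-10208576, minus strand), the fatty acid carrier of fat cell cytosol, did not exceed 7.38 CPM in any library. It measured 0.488 and 0.341 CPM at day 0, 0.126 and 0.113 in DM1 (3 counts in each library), 4.69 and 3.93 in DM2, and 1.67 and 1.5 in DM3 at day 2. The day 7 levels were 1.85 and 3.51 in DM1, 7.38 and 6.11 in DM2, and 0.719 and 1.15 in DM3. The 2 DM2 groups were the highest, no neighbours overlapped, and group means spanned 56.6-fold. Against day 0 it rose in DM2 by 3.36 ± 0.36 at day 2 (adjusted p = 1.13e-05) and 4.01 ± 0.37 at day 7 (1.6e-06), and in DM1 at day 7 by 2.68 ± 0.36 (5.18e-05). The rise in DM3 was 1.93 ± 0.36 at day 2 (adjusted p = 0.000784). At day 7 it was 1.17 ± 0.37 (adjusted p = 0.0171), a call lost without day 0 replicate 2 (0.117) or DM3 replicate 2 (0.156). The fall in DM1 at day 2, -1.76 ± 0.48 (adjusted p = 0.0158), rests on few counts: it was not called without day 0 replicate 1 (0.135), without DM1 replicate 1 (0.0719) or 2 (0.098), without the low-pseudogene libraries (0.337), or by DESeq2 (0.062).

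Angptl4 (ENSMUSG00000002289, chr17:33773750-33781830, minus strand) encodes a secreted inhibitor of lipoprotein lipase. Its 2 highest group means were in DM1 and its 2 lowest in DM2. It measured 23.1 and 21.4 CPM at day 0, 35.5 and 32.2 in DM1, 13.1 and 13.1 in DM2, and 25.5 and 33.7 in DM3 at day 2. Its day 7 levels were 39.1 and 30.2 in DM1, 20.9 and 23.4 in DM2, and 29.0 and 25.8 in DM3. DM2 at day 2 stood apart below all other groups, DM2 at day 7 overlapped day 0, and the 2 DM3 and 2 DM1 groups overlapped in turn. Against day 0 Angptl4 fell in DM2 at day 2, by 0.77 ± 0.15 (adjusted p = 0.00103), and rose in DM1 at day 7, by 0.64 ± 0.15 (0.00279). The rise in DM1 at day 2, 0.60 ± 0.15 (adjusted p = 0.00837), was lost without day 0 replicate 2 (0.0607), DM1 replicate 1 (0.0678) or the low-pseudogene libraries (0.0555). The rise in DM3 at day 2, 0.41 ± 0.15 (adjusted p = 0.0342), was lost without day 0 replicate 1 (0.0707) or 2 (0.157), DM3 replicate 2 (0.328) or the low-pseudogene libraries (0.325). At day 7 the differences were 0.30 ± 0.15 in DM3 (adjusted p = 0.099) and -0.01 ± 0.15 in DM2 (0.969), the latter of no stable sign.

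Plin2 (ENSMUSG00000028494, chr4:86648386-86670060, minus strand), the droplet coat protein of most cell types, was the most abundant of the 10 genes per length. It measured 230 and 203 CPM at day 0, 192 and 191 in DM1, 357 and 333 in DM2, and 369 and 407 in DM3 at day 2. At day 7 the levels were 196 and 185 in DM1, 558 and 608 in DM2, and 185 and 182 in DM3. The cocktail groups were high at day 2, but at day 7 only DM2 was high and DM3 had the lowest mean of all groups. The 2 DM1 groups overlapped, and all other neighbours were separate. Against day 0 it rose by 0.67 ± 0.09 (adjusted p = 5.58e-05) and 1.43 ± 0.09 (7e-08) in DM2 at day 2 and day 7, and by 0.84 ± 0.09 (7.5e-06) in DM3 at day 2. The small fall in DM3 at day 7, -0.24 ± 0.09 (adjusted p = 0.0341), was lost without day 0 replicate 1 (0.274), without DM3 replicate 1 (0.0934) or 2 (0.123), without the low-pseudogene libraries (0.317), or with no filter on low counts (0.136).

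Plin1 (ENSMUSG00000030546, chr7:79720218-79732903, minus strand), the droplet coat of mature fat cells, had nearly all of its counts in DM2 at day 7. That group had 26 and 22 counts, 0.979 and 0.856 CPM. Day 0 had 1 count in each library, DM3 had 1 count in replicate 1 at day 2 and 1 in replicate 2 at day 7, and the other libraries had 0, which allows up to 3 counts or 0.107 to 0.127 CPM in each. DM2 at day 7 exceeded day 0 by 26.6-fold (exact 95% counting interval 6.98 to 226) and DM2 at day 2 by at least 7.83-fold. The gene passed the filter on low counts only through this group, so no test of it is given. No fold is given between groups that are all at or under the floor of 3 counts per library.

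Lipe (ENSMUSG00000003123, chr7:25379527-25398710, minus strand), hormone-sensitive lipase, which breaks down stored lipid, was low throughout. It measured 3.63 and 3.03 CPM at day 0, 6.55 and 5.70 in DM1, 5.01 and 4.85 in DM2, and 8.68 and 9.13 in DM3 at day 2. At day 7 it measured 8.98 and 8.43 in DM1, 3.05 and 3.19 in DM2, and 5.33 and 5.01 in DM3. The highest groups, DM3 at day 2 and DM1 at day 7, overlapped, as did the lowest, DM2 at day 7 and day 0. Against day 0 it rose by 1.42 ± 0.15 in DM3 at day 2 (adjusted p = 5.95e-06) and 1.39 ± 0.15 in DM1 at day 7 (6.39e-06). It also rose by 0.88 ± 0.14 in DM1 at day 2 (adjusted p = 0.000748) and 0.63 ± 0.15 in DM3 at day 7 (0.00236). The rise in DM2 at day 2, 0.56 ± 0.15 (adjusted p = 0.00646), was lost without day 0 replicate 2 (0.0642) or DM2 replicate 1 (0.0544).

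Pdk4 (ENSMUSG00000019577, chr6:5483351-5496309, minus strand) encodes the kinase that shuts pyruvate dehydrogenase and so spares glucose when fat is burned. Its order of media turned round between the days. It measured 44.9 and 41.8 CPM at day 0, 22.5 and 24.0 in DM1, 113 and 122 in DM2, and 69.0 and 72.7 in DM3 at day 2. At day 7 it measured 77.0 and 99.8 in DM1, 12.8 and 11.2 in DM2, and 35.3 and 40.0 in DM3. No neighbours overlapped, and DM2 held both the highest group, at day 2, and the lowest, at day 7, 9.82-fold apart. Against day 0 Pdk4 rose by 1.44 ± 0.12 in DM2 (adjusted p = 1.54e-06) and 0.71 ± 0.12 in DM3 (0.000346) at day 2, and by 1.03 ± 0.12 in DM1 at day 7 (1.61e-05). It fell by 0.90 ± 0.12 in DM1 at day 2 (adjusted p = 0.000182) and by 1.85 ± 0.13 in DM2 at day 7 (1.29e-07).

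Plin1 was tested only because DM2 at day 7 lifted it over the filter on low counts, so counts and medians here leave it out and cover the other 9 genes. Of these, 7 were called higher and 1 lower in DM3 at day 2 against day 0, beside 25.5% of all tested genes called higher, 25.4% lower and 50.9% either way. DM2 at day 2 had 6 called higher and 1 lower, beside 23.5% higher, 26.2% lower and 49.7% either way. DM1 at day 2 had 4 higher and 2 lower, beside 15.2% higher, 14.6% lower and 29.7% either way, and 3 in all without the low-pseudogene libraries. At day 7 the numbers were 6 higher and 1 lower in DM1 (27.7% of all genes higher, 25.8% lower, 53.5% either way), 4 higher and 2 lower in DM2 (24.5%, 30.9% and 55.4%) and 4 higher and 3 lower in DM3 (28.9%, 30.1% and 59%). Medians over the 9 were -0.17 in DM1, 0.67 in DM2 and 0.84 in DM3 at day 2 and 0.91, -0.01 and 0.30 at day 7, beside medians of all tested genes between -0.03 and 0.06. These 6 comparisons share their control libraries and the values of day 0.

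DM3 against DM1 at day 2 is the comparison in which serum is equal and the cocktail differs. 7 of the 9 genes were called higher in DM3 and 0 lower, beside 17.6% of all tested genes called higher, 19.4% lower and 37% either way. Fabp4 differed most, by 3.68 ± 0.44 (adjusted p = 4.51e-05), then Cd36 by 2.12 ± 0.25 (4.71e-05), Pdk4 by 1.61 ± 0.12 (1.48e-06), Lpl by 1.48 ± 0.11 (1.65e-06) and Plin2 by 1.02 ± 0.09 (4.05e-06). In linear terms these were 12.9-, 4.34-, 3.05-, 2.79- and 2.02-fold, and in each the 2 DM3 libraries lay above the 2 DM1 libraries. Fabp4 had only 3 counts in each DM1 library of day 2, so the size of its difference in every comparison that uses this group rests on few counts. These 5 calls held under all alternatives run, including without the 3 low-pseudogene libraries. Lipe was higher by 0.54 ± 0.14 (adjusted p = 0.0103), a call lost without DM1 replicate 2 (0.0981), DM3 replicate 2 (0.0575) or the low-pseudogene libraries (0.0599). Ppard was higher by 0.25 ± 0.09 (adjusted p = 0.0403) and was not called without DM1 replicate 1 (0.146) or 2 (0.137), DM3 replicate 2 (0.356) or the low-pseudogene libraries (0.557), nor by DESeq2 (0.0595). Pparg differed by -0.12 ± 0.13 (adjusted p = 0.497), with no stable sign, and Angptl4 by -0.19 ± 0.15 (0.334). The median over the 9 was 1.02, beside -0.02 over all tested genes.

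At day 7 the same pair of media gave another picture: 2 of the 9 genes were called higher in DM3 and 4 lower, beside 22.7% and 25.1% of all tested genes and 47.7% either way. Cd36 stood higher by 2.71 ± 0.21 (adjusted p = 8.6e-07) and Lpl by 1.23 ± 0.11 (3.19e-06). Fabp4 was lower by -1.51 ± 0.34 (adjusted p = 0.00274), Pdk4 by -1.23 ± 0.12 (5.28e-06), Lipe by -0.75 ± 0.14 (0.000915) and Pparg by -0.64 ± 0.13 (0.00141). In all 6 the libraries of the 2 media did not overlap, and all 6 calls held under every alternative run. Plin2 differed by -0.06 ± 0.09 (adjusted p = 0.634), Ppard by -0.17 ± 0.09 (0.133) and Angptl4 by -0.34 ± 0.15 (0.0762). Scaling by library totals alone, which moves the median of all genes by -0.234, puts these 3 at -0.29, -0.40 and -0.58, each called lower. Relative to that shift they keep about the values given above. Angptl4 also passed without DM1 replicate 2, at -0.51 (0.024), without the low-pseudogene libraries, at -0.34 (0.0453), and with only the groups compared, at -0.34 (0.0413). The median over the 9 was -0.34, beside 0.00 over all tested genes.

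**Figure D2:**
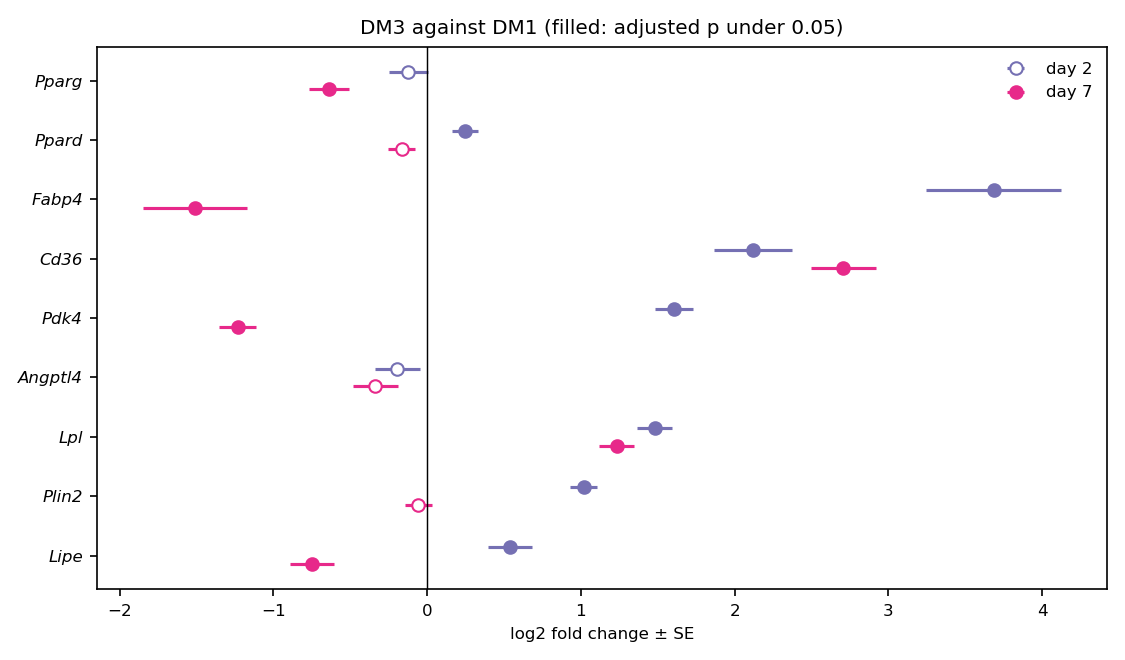
Log2 fold change ± SE of DM3 against DM1 for 9 genes (Plin1 has too few counts), at day 2 in purple and day 7 in pink, filled where the adjusted p is under 0.05. Fabp4, Pdk4 and Lipe lie to the right of 0 at day 2 and to the left at day 7, while Cd36 and Lpl lie to the right at both days.

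The difference between DM3 and DM1 itself changed between the days for 6 of the 9 genes, all towards lower in DM3 at day 7, beside 18.7% of all tested genes called in that direction and 34.9% either way. The change was -5.19 ± 0.56 for Fabp4 (adjusted p = 3.01e-05), -2.84 ± 0.17 for Pdk4 (4.56e-07), -1.29 ± 0.20 for Lipe (0.000434) and -1.08 ± 0.13 for Plin2 (5.53e-05). For Ppard it was -0.41 ± 0.12 (adjusted p = 0.0197) and for Pparg -0.51 ± 0.18 (0.0445). Leaving out any of 6 libraries ended the Pparg call: DM1 replicate 1 or 2 (0.093, 0.113) or DM3 replicate 1 (0.135) of day 2, and DM1 replicate 2 (0.139) or DM3 replicate 1 or 2 (0.115, 0.0861) of day 7. DESeq2 did not call it either (0.0877). Ppard was likewise not called without DM1 replicate 1 or 2 (0.0601, 0.057) or DM3 replicate 2 (0.0867) of day 2, nor without DM1 replicate 2 (0.0581) or DM3 replicate 1 (0.0605) of day 7. Without the low-pseudogene libraries Ppard gave -0.29 (0.213). Cd36 changed by 0.59 ± 0.33 (adjusted p = 0.198) and Lpl by -0.25 ± 0.16 (0.257), and neither was called. Without DM3 replicate 1 of day 2, Cd36 passed the threshold at 0.92 (adjusted p = 0.0439).

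Changes over time within each medium stand beside these differences. From day 2 to day 7 in DM1, 5 of the 9 genes were called higher and 0 lower (16.8% of all tested genes higher, 17.5% lower, 34.3% either way): Fabp4 by 4.43 ± 0.43 (adjusted p = 8.96e-06), Cd36 by 3.03 ± 0.25 (2.24e-06), Pdk4 by 1.93 ± 0.12 (3.04e-07), Lipe and Lpl. Lipe rose by 0.51 ± 0.14 (adjusted p = 0.0154), not called without DM1 replicate 2 of day 2 (0.13) or replicate 1 of day 7 (0.0812), and Lpl by 0.48 ± 0.11 (0.00581), not called without replicate 1 of day 2 (0.0619) or replicate 2 of day 7 (0.0503). Over the same interval in DM3, 1 gene was called higher and 5 lower (22.6% and 25.3% of all tested genes, 47.9% either way). Cd36 rose by 3.62 ± 0.22 (adjusted p = 1.39e-07), while Plin2 fell by 1.08 ± 0.09 (1.42e-06), Pdk4 by 0.91 ± 0.12 (6.26e-05), Lipe by 0.78 ± 0.14 (0.000712) and Ppard by 0.45 ± 0.09 (0.000924). Pparg was lower by -0.43 ± 0.13 (adjusted p = 0.0162), a call lost without DM3 replicate 1 of day 2 (0.125), or replicate 1 (0.082) or 2 (0.0568) of day 7. Fabp4 in DM3 differed by -0.76 ± 0.34 (adjusted p = 0.0866), which was not called but does not show that it stayed level. With scaling by library totals alone, which moves the median of all genes by -0.194, it was called at -0.96 (0.0347). The lower Fabp4 level in DM3 than in DM1 at day 7 lies beside a called rise in DM1. In DM2, 4 were called higher and 3 lower (25.4% and 29.4% of all tested genes, 54.8% either way). Pdk4 fell there by 3.29 ± 0.13 (adjusted p = 4.44e-09), Pparg by 1.10 ± 0.13 (1.7e-05) and Lipe by 0.66 ± 0.15 (0.00223). Cd36 rose by 2.35 ± 0.23 (adjusted p = 3.43e-06), Angptl4 by 0.76 ± 0.15 (0.000951), Plin2 by 0.76 ± 0.09 (1.72e-05) and Lpl by 0.75 ± 0.11 (0.000123).

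DM3 against DM2 holds the cocktail, rosiglitazone included, and changes the kind and amount of serum. Of the 9 genes, 3 were called higher and 3 lower in DM3 at day 2, beside 9.98% and 6.31% of all tested genes and 16.3% either way. Angptl4 was higher by 1.18 ± 0.15 (adjusted p = 0.000258) and Lipe by 0.85 ± 0.14 (0.00193), and Pdk4 was lower by -0.73 ± 0.12 (0.00154). These 3 calls did not rest on any single library, though Lipe lost its call when only the 4 libraries compared were fitted (0.0546). The other 3 did: Fabp4 at -1.44 ± 0.32 (adjusted p = 0.0109), Cd36 at 0.98 ± 0.23 (0.0139) and Pparg at -0.50 ± 0.13 (0.0201). Fabp4 was not called without DM2 replicate 1 (0.0765), DM3 replicate 2 (0.0652) or the low-pseudogene libraries (0.0686). Cd36 was not called without DM2 replicate 1 (0.0527) or 2 (0.0588) or DM3 replicate 1 (0.0745). Pparg was not called without DM2 replicate 1 (0.0904) or 2 (0.0539), DM3 replicate 2 (0.162) or the low-pseudogene libraries (0.214). Without DM2 replicate 1 the number called fell from 6 to 3, and over all genes from 2602 to 1131, with 1207 called without DM3 replicate 2 and 4177 without DM3 replicate 1. Plin2 (0.17 ± 0.09, adjusted p = 0.218), Lpl (-0.30 ± 0.11, 0.0887) and Ppard (0.05 ± 0.09, 0.704) were not called, and Lpl passed without DM3 replicate 1 (0.0253).

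At day 7, 3 of the 9 genes were called higher and 4 lower in DM3 than in DM2, beside 27.5% and 25.2% of all tested genes and 52.7% either way. Fabp4 was lower by -2.84 ± 0.34 (adjusted p = 1.88e-05), Plin2 by -1.67 ± 0.09 (2.1e-08) and Lpl by -0.82 ± 0.11 (5.9e-05). Cd36 was higher by 2.25 ± 0.21 (adjusted p = 2.04e-06), Pdk4 by 1.65 ± 0.13 (3.8e-07) and Lipe by 0.73 ± 0.15 (0.00116). Ppard was lower by -0.33 ± 0.09 (adjusted p = 0.00579), a call lost without DM2 replicate 2 (0.0563). Plin1 was 44.1-fold lower in DM3 (exact 95% counting interval 7.54 to 1780), 22.4-fold without DM3 replicate 1, and at least 7.24-fold without DM3 replicate 2, since the 1 count of DM3 is in replicate 2. Pparg differed by 0.17 ± 0.13 (adjusted p = 0.29) and Angptl4 by 0.31 ± 0.15 (0.1).

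**Figure D3:**
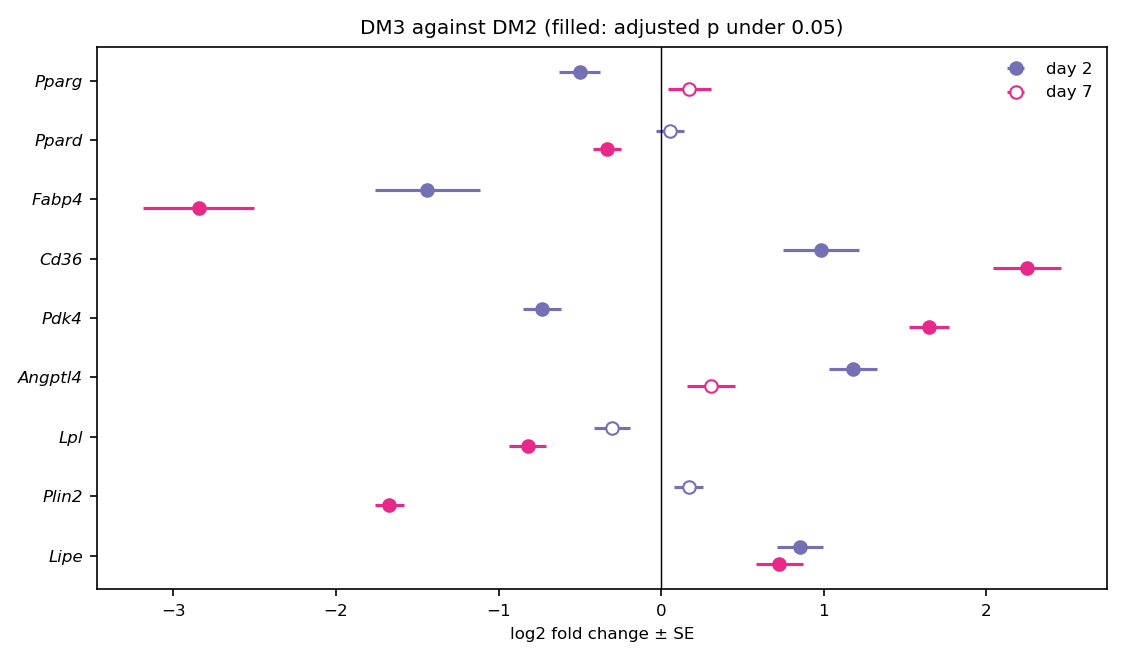
Log2 fold change ± SE of DM3 against DM2 for 9 genes (Plin1 left out), at day 2 in purple and day 7 in pink, filled where the adjusted p is under 0.05. Fabp4 is to the left of 0 and Cd36 and Lipe to the right at both days, Pdk4 crosses from left to right, and Plin2 moves from 0.17 to -1.67.

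The difference between DM3 and DM2 changed between the days for 8 of the 9 genes, 3 upward and 5 downward, beside 20% and 19.8% of all tested genes and 39.8% either way. Pdk4 changed by 2.38 ± 0.17 (adjusted p = 1.04e-06), Plin2 by -1.84 ± 0.13 (6.58e-07), Cd36 by 1.27 ± 0.31 (0.00619) and Angptl4 by -0.87 ± 0.21 (0.00565). Pparg changed by 0.67 ± 0.18 (adjusted p = 0.011), which was not called without the low-pseudogene libraries (0.0614). Fabp4, at -1.41 ± 0.46 (adjusted p = 0.0289), was not called without DM2 replicate 2 of day 2 (0.0846), DM2 replicate 1 (0.0928) or DM3 replicate 1 (0.118) of day 7. Lpl, at -0.52 ± 0.16 (adjusted p = 0.0211), was not called without DM3 replicate 1 of day 2 (0.0649), DM2 replicate 1 (0.0923) or DM3 replicate 2 (0.0844) of day 7. Ppard, at -0.39 ± 0.12 (adjusted p = 0.0236), was not called without DM2 replicate 1 (0.059) or DM3 replicate 2 (0.11) of day 2, or without DM2 replicate 2 (0.0882), DM3 replicate 1 (0.0667) or DM3 replicate 2 (0.052) of day 7, or without the low-pseudogene libraries (0.185).

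DM2 against DM1 changes serum and cocktail together. At day 2 DM2 had 6 of the 9 genes called higher and 1 lower, beside 17.5% and 21.9% of all tested genes and 39.4% either way. Fabp4 was higher by 5.12 ± 0.43 (adjusted p = 2.67e-06), Pdk4 by 2.34 ± 0.13 (8.39e-08), Lpl by 1.78 ± 0.12 (3.42e-07) and Plin2 by 0.85 ± 0.09 (1.54e-05), while Angptl4 was lower by -1.37 ± 0.15 (2.13e-05). Cd36 was higher by 1.13 ± 0.26 (adjusted p = 0.00489), not called without DM1 replicate 2 (0.0545). Pparg was higher by 0.38 ± 0.13 (adjusted p = 0.0333), not called without DM1 replicate 1 (0.106) or 2 (0.137) or DM2 replicate 1 (0.122) or 2 (0.0973), or without the low-pseudogene libraries (0.071). At day 7, 3 were called higher and 4 lower (26.5% and 31.4% of all tested genes, 57.8% either way). Higher were Lpl, by 2.05 ± 0.12 (adjusted p = 3.64e-08), Plin2, by 1.61 ± 0.09 (3.34e-08), and Fabp4, by 1.33 ± 0.31 (0.00303). Lower were Pdk4, by -2.88 ± 0.13 (adjusted p = 6.42e-09), Lipe, by -1.48 ± 0.15 (3.65e-06), Pparg, by -0.81 ± 0.13 (0.00018), and Angptl4, by -0.65 ± 0.15 (0.00239). Cd36 differed by 0.46 ± 0.21 (adjusted p = 0.078) and passed without the low-pseudogene libraries, at 0.46 (0.0344). Plin1 stood at least 7.96-fold higher in DM2, with no test. Of the set, 6 changed this difference between the days by the test, 2 upward and 4 downward, beside 23% and 26% of all tested genes and 49% either way, with Pdk4 at -5.22 ± 0.18 (4.13e-09) and Fabp4 at -3.79 ± 0.54 (0.000106).

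Levels can be set side by side between genes only per length, here as mean CPM per kilobase of the principal Gencode transcript. Plin2 was the highest of the 10 in all 7 groups, from 97.0 in DM3 to 309 in DM2, both at day 7. Lpl ranged from 11.9 at day 0 to 92.9 in DM2 at day 7. Of the fat cell genes, Fabp4 peaked at 7.53 and Plin1 at 0.326 in DM2 at day 7, and Lipe at 2.46 in DM3 at day 2. In DM2 at day 7 Fabp4 stood above Angptl4 (6.70), Pparg (6.23), Pdk4 (3.44) and Cd36 (1.65). It stood below Plin2, Lpl and Ppard (18.3) in that group. Cd36 reached 7.87 in DM3 at day 7, beside 7.02 for Pparg in the same libraries (7.45 and 4.20 per kilobase of exon union). Fabp4, Lpl and Ppard have exon unions over 2 times as long as that transcript, so another choice of length lowers these genes most: Fabp4 would stand at 1.5 instead of 7.53.

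**Figure D4:**
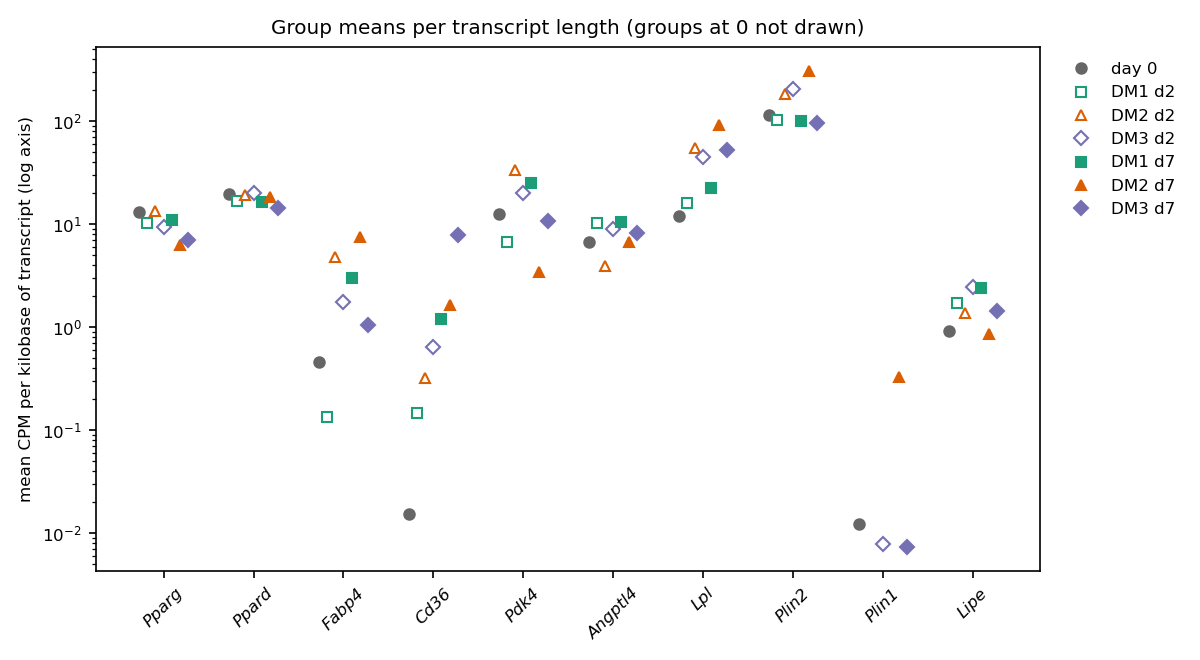
Mean CPM per kilobase of principal transcript (log axis) of each gene in the 7 groups, open symbols for day 2 and filled symbols for day 0 and day 7, with groups at 0 not drawn. Plin2 lies above all other genes in every group, and the symbols of Cd36 spread from 0.0152 at day 0 to 7.87 in DM3 at day 7.

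Partners of the receptors were read from a list of 17 genes (PPAR-alpha, the RXRs, coactivators, corepressors and C/EBP factors), of which 14 were tested. In DM3 against DM1 at day 2, 11 of these 14 were called higher and 0 lower, with a median of 0.68, beside 17.6% and 19.4% of all tested genes. Cebpb and Cebpa, factors that act with PPAR-gamma in fat cell formation, rose most. Cebpb measured 138 and 163 CPM in DM3 against 33.8 and 30.8 in DM1 (2.22 ± 0.16, adjusted p = 1.2e-06). Cebpa measured 18.1 and 23.7 against 6.76 and 5.51 (1.77 ± 0.22, adjusted p = 7.71e-05). At day 7, 5 were called higher and 2 lower, with a median of 0.09, beside 22.7% and 25.1% of all tested genes. Ppargc1b, a coactivator of mitochondrial genes, was higher by 1.10 ± 0.16 (adjusted p = 0.000125) and Cebpb by 1.04 ± 0.15 (0.000161), while Cebpd was lower by -0.87 ± 0.17 (0.00113) and Ncoa2, a steroid receptor coactivator, by -0.52 ± 0.12 (0.00374). Ppara and Rxrg had at most 4 counts in any of the 4 groups of these comparisons.

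Of 22 other genes of fat storage, 12 were tested, and 6 were called higher and 3 lower in DM3 against DM1 at each day, with medians of 0.34 and 0.39, beside 37% of all tested genes called either way at day 2 and 47.7% at day 7. Plin4, another droplet coat, was higher at day 2, at 22.6 and 25.3 CPM against 3.65 and 4.16 (2.61 ± 0.24, adjusted p = 1.57e-05). Slc2a4, the insulin-responsive glucose carrier of muscle and fat, was higher by 1.64 ± 0.41 at day 2 (adjusted p = 0.00776), not called without DM1 replicate 2 (0.069) or the low-pseudogene libraries (0.061). Its difference at day 7 was 2.96 ± 0.41 (adjusted p = 8.49e-05), and 3.56 without DM1 replicate 1. Gpd1, which makes the glycerol backbone of triglycerides, was higher at day 7 by 2.03 ± 0.50 (adjusted p = 0.00535). The lipid carrier Fabp5 was lower by -1.12 ± 0.14 at day 2 (adjusted p = 7.47e-05) and -2.53 ± 0.17 at day 7 (1.95e-07), and G0s2, an inhibitor of triglyceride lipase, by -1.62 ± 0.19 (3.55e-05) and -0.87 ± 0.18 (0.0014).

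Fatty acid oxidation genes had 20 of 22 tested, with 11 called higher and 2 lower at day 2 (median 0.30) and 12 higher and 3 lower at day 7 (median 0.42) in DM3 against DM1. Of all tested genes 17.6% and 19.4% were so called at day 2 and 22.7% and 25.1% at day 7. Ucp3, a mitochondrial carrier of muscle, had 34 counts in DM3 and 1 in DM1 at day 2, 33.9-fold (exact 95% counting interval 5.69 to 1380), the 1 count being in DM1 replicate 2. Its fitted difference of 4.79 was 4.07 without the low-pseudogene libraries and stayed called (0.0274). At day 7 it measured 6.09 and 5.42 CPM against 0.713 and 0.209 (3.60 ± 0.59, adjusted p = 0.000314), with 4.75 without DM1 replicate 1 and 3.00 without DM1 replicate 2. Fabp3, the muscle fatty acid carrier, measured 13.6 and 11.9 CPM in DM3 at day 7 and 0 and 0.668 in DM1, and was called (adjusted p = 0.00127), but the size of its difference rests on DM1 replicate 2, going from 5.29 to 4.24 without replicate 1 and to 11.4 without replicate 2. Acot1, an acyl-CoA thioesterase, was higher at day 2 by 1.64 ± 0.46 (adjusted p = 0.0146), not called without DM1 replicate 1 (0.121) or the low-pseudogene libraries (0.112), and at 2.27 without DM1 replicate 2. Acot2, its mitochondrial relative, was lower by -1.22 ± 0.17 (adjusted p = 0.000127), and Ucp2 by -0.43 ± 0.16 (0.0481), not called without DM1 replicate 2 (0.336), DM3 replicate 2 (0.197) or the low-pseudogene libraries (0.101), or with only the groups compared (0.0822). At day 7 the fatty acid transporter Slc27a1 was lower by -1.10 ± 0.08 (adjusted p = 4.15e-07) and Cpt1b, the muscle carnitine palmitoyltransferase, by -1.08 ± 0.30 (0.00992), not called without DM1 replicate 2 (0.0581) or DM3 replicate 2 (0.0934).

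Partners of Lpl and Lipe numbered 9, with 6 tested. At day 2, 2 were called higher and 0 lower in DM3 against DM1 (median 0.23; 37% of all tested genes called either way): the lipoprotein receptor Vldlr by 2.62 ± 0.25 (adjusted p = 7.9e-06) and Pnpla2, the lipase that acts ahead of Lipe, by 0.74 ± 0.12 (0.000381). At day 7, 1 was higher and 2 lower (median -0.01), a share near the 47.7% of all tested genes called either way. Vldlr was higher by 0.86 ± 0.20 (adjusted p = 0.00323). Mgll, the last lipase of the chain, was lower by -1.39 ± 0.35 (adjusted p = 0.00595), not called without DM1 replicate 2 (0.0712) or DM3 replicate 2 (0.0622). Lmf1, which folds Lpl, was lower by -0.38 ± 0.11 (adjusted p = 0.0109), not called without DM1 replicate 1 (0.0771) or DM3 replicate 2 (0.0767). Gpihbp1, the anchor of Lpl on capillary endothelium, had 0 counts in DM1 and DM3 at both days.

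Genes induced by the other agents of the cocktail moved in the same comparison. Of 9 glucocorticoid-induced genes, 8 were called higher and 0 lower in DM3 against DM1 at day 2, with a median of 2.78, beside 17.6% and 19.4% of all tested genes. Among them Mt2, a metallothionein, measured 499 and 529 CPM against 18.4 and 21.3 (4.69 ± 0.12, adjusted p = 6.74e-10). Zbtb16 had 11 counts against 0, at least 1.83-fold, and was not called without the low-pseudogene libraries (0.102). At day 7, 4 were higher and 2 lower, with a median of 0.03, beside 22.7% and 25.1%. Zbtb16 was higher by 2.75 ± 0.42 (adjusted p = 0.000246; 3.59 without DM1 replicate 1) and Tsc22d3 by 1.03 ± 0.10 (3.34e-06). Sgk1 was lower by -0.46 ± 0.11 (adjusted p = 0.00525), not called without DM1 replicate 2 (0.069). Fkbp5 was lower by -0.21 ± 0.07 (0.0271), not called without DM1 replicate 1 (0.0712) or 2 (0.0912) or DM3 replicate 1 (0.0725) or 2 (0.124). In DM1, where no dexamethasone was added, all 9 rose from day 0 to day 7 by the test (median 2.72), beside 27.7% of all tested genes. Of 9 cAMP-induced genes, 4 were higher and 2 lower at day 2 (median 0.52) and 5 higher and 0 lower at day 7 (median 0.58), beside the same shares of all tested genes. Rgs2, a brake on G protein signalling, measured 56.7 and 48.8 CPM against 0.840 and 0.563 at day 2 (6.24 ± 0.31, adjusted p = 3.93e-07), and the kinase Sik1 was higher by 2.37 ± 0.10 (2.52e-08) and, at day 7, by 2.24 ± 0.10 (1.17e-08). Pde4b, a phosphodiesterase, was higher at day 7 by 2.48 ± 0.10 (adjusted p = 6e-09). Nr4a1 was lower at day 2 by -0.90 ± 0.13 (adjusted p = 0.000252) and Nr4a2 by -0.47 ± 0.13 (0.0126), the latter not called without DM1 replicate 2 (0.11). The part of each agent in the changes of Cd36, Fabp4, Pdk4, Lpl and Plin2 was not tested.

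Muscle markers moved beside these genes. The summed level of 8 skeletal muscle markers was 1240 to 2690 CPM in every group but DM3 at day 7, where it was 19700 to 20600. Most of that high sum was Acta1 (a mean of 13000 CPM) and Myh3 (3200). Myod1 (68.8 there against 137 at day 0), Myf5 (200 against 289 in DM2 at day 2) and Cdh15 (444 against 547 in DM3 at day 2) peaked in other groups. All 8 had counts in every group. At day 7 all 8 were called higher in DM3 than in DM1 (median 2.71), with Myog at 1110 and 995 CPM against 53.5 and 40.9, and at day 2, 4 of the 8 were, beside 22.7% of all tested genes at day 7 and 17.6% at day 2. DM3 at day 7 is also where Cd36 was highest and Ppard lowest, and the part of muscle differentiation in these values was not tested. Fat cell markers other than Plin4 stayed near 0. Of 8, Lep had 0 counts in all 14 libraries, Cidea 1 count and Cfd 6 in all, and Adipoq reached 0.339, Cidec 0.700 and Retn 0.200 CPM at most. Their summed level of 2.96 to 45.4 CPM was nearly all Plin4. Of these 8, 7 are also in the storage list, and the only one tested, Plin4, was called higher in DM3 than in DM1 at day 2 and not at day 7. DM2 at day 7, the group with Plin1, had counts for 7 of the 8, beside 2 to 4 in the other groups, with mean levels of 0.247 CPM for Adipoq and 0.538 for Cidec. Adrb3 went the other way, with a mean of 0.0195 CPM there, 0.197 in DM2 at day 2 and 0.22 in DM1 at day 7. Plin4, at 19.2 CPM there, was called lower than in DM2 at day 2 (42.1) and in DM1 at day 7 (29.9). It was called higher than at day 0 (3.51). Of 8 macrophage markers, which matter because macrophages carry Fabp4, Cd36 and Plin2, Adgre1 and Fcgr1 had 0 counts in all 14 libraries and Ptprc had 4 in all. Their sum ran from 5.98 to 14 CPM, mostly Cd14 and Cd68. In DM3 against DM1, 2 were tested: 0 were called higher and 1 lower at day 2, and 1 higher and 1 lower at day 7, beside 37% and 47.7% of all tested genes called either way. In DM2 at day 7, where Fabp4, Plin2 and Plin1 peaked, Cd68 was also at its highest, a mean of 6.47 CPM against 1.07 at day 0. Of the 2 tested, 1 was called higher than at day 0 and 0 lower, beside 24.5% and 30.9% of all tested genes. Cd14 (6.8 against 8.1), Csf1r (0 against 0.226) and Ptprc (0.0195 against 0.0345) had lower means there than at day 0. Itgam had a higher one (0.0565 against 0), and Lyz2 was level (0.173 against 0.172). Of 8 endothelial markers, another source of Cd36 and Fabp4, the sum ran from 1.52 to 4.50 CPM and was lowest in DM3 at day 7, where Cd36 was highest. Of 5 tested in DM3 against DM1, 0 were called at day 2, beside 37% of all tested genes called either way. At day 7, 1 of the 5 was lower and 0 higher, beside 25.1% of all tested genes lower and 47.7% either way. In DM2 at day 7, 2 of the 5 were called higher than at day 0 and 0 lower, beside 24.5% and 30.9% of all tested genes, and Kdr had a mean of 1.43 CPM beside at most 0.146 in the other groups. Tek and Egfl7 also had higher means there than at day 0. Pecam1 (0.42 against 0.462), Cdh5 (0.688 against 0.847), Emcn (0 against 0.0345) and Esam (0 against 0.103) had lower ones. The part of macrophage or endothelial RNA in the DM2 values was not tested.

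Genes most like 4 of the set over the 14 libraries were found by Pearson correlation of log2(CPM + 1). The 14 points share 7 groups and the same scaling, so the values describe and carry no test. For Pparg, the genes most like it included Dlx2 (r = 0.956, Spearman's rho 0.952) and Odf2l (0.949, 0.912). Fabp4 was most like Gsta2 (r = 0.957, rho 0.960), 1110038B12Rik (0.954, 0.982) and Tnfrsf1a (0.949, 0.903). Pdk4 was most like Runx2 (r = 0.954, rho 0.930), 4933439C10Rik (0.952, 0.934) and Gm17491 (0.949, 0.952). Angptl4 had the loosest matches, Nrp1 (r = 0.906, rho 0.807), Tuft1 (0.900, 0.807) and Sulf1 (0.879, 0.873). None of the genes named here for likeness is among the 10.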

How the data were processed

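RNA of 14 C2C12 libraries in 7 groups was analysed from a single table of genes. The authors deposited RSEM expected counts per gene, estimated counts that need not be whole and are not normalized. Per the submitters' processing notes, reads of 50 bases were aligned with STAR 2.5.1b to GRCm38.p5 with Gencode vM12 and counted with RSEM 1.2.31. A read that fits several genes is divided among them, which adds uncertainty for genes with near-identical copies.

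Rounded counts went into edgeR 4.0.16, with limma 3.58.1 under R 4.3.3. There filterByExpr by group left 15973 genes, libraries were scaled by TMM, and all 14 were fitted as 7 groups with 7 residual degrees of freedom. The 15 comparisons of groups and 3 tests of whether a difference changed between days used the robust quasi-likelihood F test, with Benjamini-Hochberg adjustment over all tested genes and a threshold of 0.05. Each SE comes from the fold change and its F statistic, as |log2 fold change|/√F. Scripts were tested on simulated data. With 1 to 3 counts in a group a ratio carries an exact 95% counting interval, and a group at 0 is set to a floor of 3 counts per library. Reads carry no molecular identifiers, so both cover counting error only.

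The 10 genes and all lists were chosen with earlier results of these data known. All 10 are named with every library. From each other list the rule names the 2 largest rises and 2 largest falls called in DM3 against DM1 at each day, along with marker genes at 0 in all libraries and the 3 genes most like each of Pparg, Fabp4, Pdk4 and Angptl4; marker genes with few counts and untested partners were named after their values were seen. One gene that the likeness rule names is not reported here. Coordinates and transcript lengths are from Gencode vM21 on GRCm38, and promoters from RefSeq on GRCm38.p6. Alternatives were DESeq2 1.42.0, other scalings, no filter, unrounded counts, a replicate block, only the groups compared, leaving out each library in turn, and leaving out the 3 libraries of low pseudogene share.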

Additional observations from a re-analysis of the deposited data

Results flagged for a closer look

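A difference between 2 media that itself changed from day 2 to day 7, by edgeR's quasi-likelihood test of that change, singles out 20 values. All are from the 9 genes other than Plin1. Of all tested genes, 34.9% were called either way for DM3 against DM1, 39.8% for DM3 against DM2 and 49% for DM2 against DM1. For DM3 against DM1 the change was -0.51 for Pparg, -0.41 for Ppard, -5.19 for Fabp4, -2.84 for Pdk4, -1.08 for Plin2 and -1.29 for Lipe on the log2 scale. For DM3 against DM2 it was 0.67 for Pparg, -0.39 for Ppard, -1.41 for Fabp4, 1.27 for Cd36, 2.38 for Pdk4, -0.87 for Angptl4, -0.52 for Lpl and -1.84 for Plin2. For DM2 against DM1 it was -1.19 for Pparg, -3.79 for Fabp4, -5.22 for Pdk4, 0.73 for Angptl4, 0.76 for Plin2 and -1.17 for Lipe. The 3 sets share libraries, since each medium enters 2 of them. Pparg, Fabp4, Pdk4 and Plin2 appear in all 3. Leaving out single libraries ended the calls of Pparg and Ppard for DM3 against DM1, as given above. The same held for Ppard, Fabp4 and Lpl in DM3 against DM2, and Pparg in that pair lost its call without the low-pseudogene libraries. The last Angptl4 value was not called without DM1 replicate 2 of day 7 (adjusted p = 0.051), nor when scaled by library totals alone (0.0568).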

How the results depend on the processing

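With 2 libraries in each group, leaving out any of them leaves that group with 1, whose spread is then taken to be that of the other groups. Counts in this section take in Plin1. Its calls all lie in comparisons with DM2 at day 7, the group that put it through the filter, so they carry no weight. In the main fit 16.3% to 59% of all tested genes were called either way, depending on the comparison. The number of the 10 genes called moved by over 1.5 times in 2 comparisons: from 6 to 3 in DM1 at day 2 against day 0 without the 3 libraries of low pseudogene share, and from 6 to 3 in DM3 against DM2 at day 2 both when only the groups compared were fitted and without DM2 replicate 1. Over all genes these comparisons moved from 4750 to 2141 and from 2602 to 952 without the low-pseudogene libraries, and DM3 against DM1 at day 2 from 5908 to 3402. DM1 at day 2 against day 0 gave 2903 without day 0 replicate 1 and 2950 and 3044 without DM1 replicates 1 and 2. DM3 against DM2 at day 2 gave 485 when only its groups were fitted.

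Leaving out each library in turn gave, against day 0, 4 to 5 called genes in DM1, 6 to 7 in DM2 and 6 to 8 in DM3 at day 2, and 6 to 7, 7 to 7 and 5 to 6 at day 7. Between the days it gave 4 to 4 in DM1, 8 to 8 in DM2 and 5 to 6 in DM3. DM3 against DM1 had 5 to 7 at day 2 and 6 to 7 at day 7, DM3 against DM2 3 to 6 and 7 to 8, and DM2 against DM1 5 to 6 and 8 to 8. The changes of these 3 differences between the days had 4 to 6, 6 to 8 and 5 to 6.

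Of the values for single genes, no called value changed sign under any alternative run: 1441 stayed called and 115 lost the call. Of values not called, 518 stayed so, 23 passed the threshold and 35 changed sign. Leaving out each library in turn took Pparg from -0.043 to 0.090 in DM2 at day 2 against day 0 and from -0.27 to 0.015 in DM3 against DM1 at day 2 (0.032 without the low-pseudogene libraries). Ppard in DM3 at day 2 against day 0 went from -0.12 to 0.12, and gave -0.00032 with RLE factors, -0.0056 with library totals, -0.034 with only the groups compared and -0.090 without the low-pseudogene libraries. It also went from -0.14 to 0.0011 in DM2 between the days and from -0.069 to 0.17 in DM3 against DM2 at day 2 (-0.069 without the low-pseudogene libraries), and gave -0.087 in DM2 against DM1 at day 7 with library totals. The change of this last difference between the days went from -0.097 to 0.042 for Ppard, and was 0.025 with DESeq2 and RLE and 0.030 with no filter. Angptl4 in DM2 at day 7 against day 0 went from -0.090 to 0.070, and was 0.038 with DESeq2 and RLE, 0.056 with no filter, 0.023 with only the groups compared and 0.048 without the low-pseudogene libraries. Between the days it went from -0.16 to 0.21 in DM1 and from -0.30 to 0.11 in DM3 (0.11 without the low-pseudogene libraries), and the change of DM3 against DM1 from -0.33 to 0.071. Lipe in DM2 at day 7 against day 0 went from -0.22 to 0.041 (0.041 without the low-pseudogene libraries), and Plin2 in DM1 between the days from -0.051 to 0.035. The cause was not tested.

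Same-numbered libraries did not deviate together throughout: over 21 pairs of groups the correlation of their deviations ran from -0.78 to 0.74 (median 0.03), with 3 over 0.1. Some pairs of groups thus shared strong deviations, of either sign, and their source was not tested. With the number as a replicate block, 7 in place of 6 genes were called in DM1 at day 2 against day 0 and 5 in place of 6 in the change of DM3 against DM1, and the other 16 counts were equal. Scaling by library totals alone moved the median of all genes by -0.169 to -0.257 in 8 comparisons. Depth limits Plin1, Cd36 at day 0 and Fabp4 in DM1 at day 2.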
